A study of Mus musculus with 8 samples.

Results

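The genes described here are the nuclear genes of oxidative phosphorylation, chosen by gene symbol as subunits of the respiratory complexes I to IV and of ATP synthase. Of 24538 genes in the count files, 84 symbols matched and 79 of these had at least 10 counts summed over 8 libraries. The 79 members are 34 genes of complex I, 4 of complex II, 9 of complex III, 15 of complex IV and 15 of ATP synthase, plus Atp5s and Atp5sl, whose symbols match but whose products are not subunits. RNA came from the skin of Atoh1-GFP mice at postnatal day 0, and all 4 groups share this genotype and age. In these mice green fluorescent protein (GFP) marks cells that express Atoh1, the transcription factor of Merkel cells. Paw Merkel and back Merkel cells, the touch receptor cells of the epidermis, were sorted as GFP+, EpCAM+ and Sca1- cells from paw and from back skin. Paw IFE and back IFE cells, epidermal cells named in the labels by these letters alone, were sorted as GFP-, EpCAM+ and Sca1+ cells from the same sites. Each group has 2 libraries made from amplified RNA, and nothing in the labels says whether these came from separate animals, so p-values here reflect the spread among these libraries alone, which may be technical.

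Oxidative phosphorylation makes ATP in the inner mitochondrial membrane. Complexes I and II pass electrons from NADH and succinate to ubiquinone, complex III passes them on to cytochrome c, and complex IV passes them to oxygen. The proton gradient built by complexes I, III and IV drives ATP synthase, whose rotating membrane ring of c subunits turns the catalytic head. All of these except complex II also hold subunits encoded in mitochondrial DNA, and those transcripts are not analysed here. Because most of the subunits are needed together, their nuclear genes are widely expressed, while a few complex IV subunits exist as tissue isoforms.

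Libraries held 11139306 to 26195076 counts. Summed markers of Merkel cells measured 3975 to 6321 CPM (read counts scaled to a common library size with TMM factors) in the Merkel libraries and 10.2 to 19.3 CPM in the IFE libraries. Summed epidermal keratinocyte markers measured 32250 to 47000 CPM in the IFE libraries. Their sum was 8191 CPM for the first and 1875 CPM for the second paw Merkel library, and 2745 and 2276 CPM for the back Merkel pair. Summed immune and Langerhans cell markers measured 722 CPM in back IFE library 1 and 109.6 CPM in back IFE library 2, against 0.152 to 38.7 CPM elsewhere. Over 28 genes of the Hox clusters, whose expression marks body position, back IFE library 2 went against its label: its log2 CPM correlated with paw IFE libraries 1 and 2 at 0.825 and 0.92 (Pearson's r across genes), and with back IFE library 1 at -0.043. In the same order, these values were 0.949, 0.941 and 0.918 over all 15151 genes tested. The main results in back skin are therefore also given without back IFE library 2.

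Member genes took a smaller share of the counts in Merkel libraries than in IFE libraries. Paw Merkel libraries 1 and 2 had shares of 0.387% and 0.225%, and the back Merkel pair 0.254% and 0.190%. Paw IFE libraries 1 and 2 had 0.553% and 0.582%, and the back IFE pair 0.714% and 0.580%. Every Merkel library lay below every IFE library. In such bulk samples, fewer cells of a type and less RNA per cell cannot be told apart. Summed over members, CPM came to 3576 and 2550 for paw Merkel, 5226 and 5745 for paw IFE, 2523 and 2066 for back Merkel, then 6788 and 5802 for back IFE. A pair of genes for the catalytic head of ATP synthase, Atp5a1 and Atp5b (its alpha and beta subunits), made up 38.6% to 61.3% of this sum, so that sums of members mostly follow these genes and medians over members are given beside them.

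Levels differed widely between members. On the scale of deposited FPKM (fragments per length of transcript and library size), averaged over the 8 libraries, the median member stood at 28.1 and the median of all genes tested at 6.70. There were 7 members above 100 FPKM and 18 under 10 FPKM. Atp5b stood highest at 1175 FPKM, followed by Atp5a1 at 291 FPKM. The highest members of the other complexes were Cyc1 (cytochrome c1 of complex III) at 178 FPKM, Cox4i1 (a nuclear subunit of complex IV) at 129.8 FPKM, Ndufb9 (an accessory subunit of complex I) at 120.1 FPKM and Sdha (the flavoprotein of complex II) at 54.0 FPKM. Levels in FPKM are uncertain for 7 members (Atp5g2, Atp5l, Ndufa11, Ndufs3, Cox6b2, Cox7c and Cox8b), whose FPKM stood more than 2.5 times below what their counts per kilobase give relative to the median member. In Cox7c, for example, a mean of 18.6 CPM went with 1.91 FPKM. In Atp5g1, Ndufc1 and Sdhc, FPKM stood more than 2.5 times above their counts per kilobase on that scale, and is also uncertain.

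**Figure D1:**
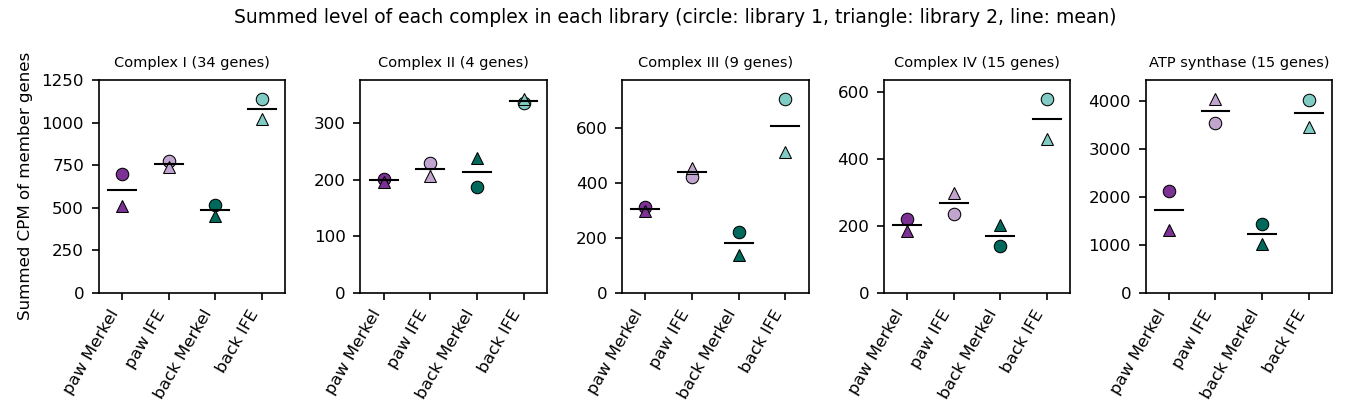
Summed CPM of the members of each complex (vertical axis, starting at 0) in each library, with circles for library 1, triangles for library 2 and lines for the mean of 2 libraries. In all 5 complexes both Merkel libraries of a site lie below both IFE libraries of that site.

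Promoters were read for 64 members in RefSeq (build GRCm38.p6), to show what sequence the members share. Each window was the 250 bases before a start site that RefSeq gives. By GENCODE positions some windows reach into the gene (as for Atp5k) or lie inside it (Atp5d), and the shares below use whole windows. The motif GCGCANGCG of NRF1, a factor known for nuclear respiratory genes, was found on either strand in 20.3% of 69 member windows (14 windows, 13 genes) and in 5.16% of all 32851 windows of that length. The motif CCGGAAG of GABP, a factor of the same kind also called NRF2, was found in 17.4% of member windows and 6.91% of all windows. The motif AAGATGGCG of YY1 was found in 1.4% and 0.61%. A match is a description of the letters and not a bound site. Members with the NRF1 motif had a median log2 fold change of -1.07 between back Merkel and back IFE cells, and those without it -1.26. For the GABP motif the order was the opposite, with -1.52 in the 12 members that hold it and -1.18 in the others. The following 4 windows are shown because their genes carry the contrasts described next: Sdha, whose level varied little (118 to 181 CPM), Cox6a1, with the most motif matches of the promoters shown, and Atp5g3 and Uqcr10, which fell in back Merkel cells. All 4 lie on the minus strand and are printed 5′ to 3′ in gene orientation, with motif matches in capitals. The coordinates are chr13:74350281-74350490 for Sdha, chr5:115348982-115349208 for Cox6a1, chr2:73911327-73911576 for Atp5g3 and chr11:4704345-4704594 for Uqcr10. Bases that GENCODE places inside the gene were left out of the windows of Sdha (40 bases) and Cox6a1 (23 bases).
Sdha: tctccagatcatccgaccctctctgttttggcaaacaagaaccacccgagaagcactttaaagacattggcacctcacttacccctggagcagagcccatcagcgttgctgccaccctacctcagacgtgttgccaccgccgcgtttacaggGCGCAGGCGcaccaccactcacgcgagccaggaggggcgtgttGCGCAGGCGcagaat
Cox6a1: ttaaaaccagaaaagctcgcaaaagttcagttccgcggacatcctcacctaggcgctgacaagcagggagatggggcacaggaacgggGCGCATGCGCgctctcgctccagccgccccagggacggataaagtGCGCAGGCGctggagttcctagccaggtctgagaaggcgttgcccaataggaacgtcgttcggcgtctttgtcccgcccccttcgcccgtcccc
Atp5g3: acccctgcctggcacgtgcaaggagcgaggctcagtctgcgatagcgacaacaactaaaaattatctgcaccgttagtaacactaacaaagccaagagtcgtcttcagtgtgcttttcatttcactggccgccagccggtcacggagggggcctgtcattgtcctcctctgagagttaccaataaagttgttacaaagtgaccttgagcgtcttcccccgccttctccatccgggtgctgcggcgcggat
Uqcr10: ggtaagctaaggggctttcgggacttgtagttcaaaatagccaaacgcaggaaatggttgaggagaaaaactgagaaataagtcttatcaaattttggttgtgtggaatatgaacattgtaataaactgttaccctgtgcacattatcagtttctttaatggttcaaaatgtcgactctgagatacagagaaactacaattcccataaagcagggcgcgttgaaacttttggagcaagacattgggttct
Sdha and Cox6a1 each have 3 NRF1 matches in the full 250 bases, and in Cox6a1 a pair of them overlap on opposite strands of the first capital run. The windows of Atp5g3 and Uqcr10 hold none of the 3 motifs, which says only that these letters are not in these windows.

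Back Merkel cells were compared with back IFE cells to ask how the epidermal receptor differs from its neighbours in back skin. Of the 79 members, 11 fell in back Merkel cells and 0 rose (edgeR quasi-likelihood test, Benjamini-Hochberg adjustment over 15151 genes, threshold 0.05). Over all genes tested, 7.45% were called lower and 7.99% higher, against 13.9% of members called lower. At an unadjusted p under 0.05, 33 members lay lower (41.8%) and 1 higher, against 15.3% of all genes in each direction. DESeq2 called 28 members lower (35.4%, all genes 12.5%) and 1 higher (Atp5sl), and limma-trend called 23 lower (29.1%, all genes 10.5%). The median log2 fold change was -1.26 over members and -0.06 over all genes, with 68 of 79 members fitted below 0. Both back Merkel libraries lay below both back IFE libraries in 55 members (69.6%) and above them in 4, against 32.8% and 29.1% of all genes. Set against back IFE library 1 alone, both back Merkel libraries lay below it in 62 members (78.5%, all genes 40.6%). The calls comprised 4 of 15 genes of ATP synthase, 3 of 9 of complex III, 2 of 15 of complex IV, 2 of 34 of complex I and 0 of 4 of complex II.

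In ATP synthase the median log2 fold change between back Merkel and back IFE cells was -1.29, and 11 of 15 genes lay lower without overlap. Atp5g3 (chromosome 2, 73908447 to 73911326, GRCm38), one of the genes that encode the c subunit of the rotating ring, measured 29.9 and 17.6 CPM in back Merkel libraries 1 and 2 and 152 and 128 CPM in back IFE libraries 1 and 2. The paw libraries lay between these, at 47.3 and 57.5 CPM in Merkel and 61.0 and 69.1 CPM in IFE libraries. Its log2 fold change in back skin was -2.56 (SE 0.44, edgeR adjusted p = 0.00282). Atp5c1, the gamma subunit that forms the central shaft of the head (chromosome 2, 10056016 to 10080510), measured 79.3 and 63.9 CPM against 332 and 276 CPM. It changed by -2.09 on the log2 scale (SE 0.37, edgeR adjusted p = 0.00336). Atp5g3 and Atp5c1 kept their calls under all 18 alternatives tried, and were the 2 called members that did. Atp5b (chromosome 10, 128083273 to 128090391) measured 822 and 549 CPM against 2662 and 1845 CPM, a log2 fold change of -1.72 (SE 0.45, edgeR adjusted p = 0.0255). Atp5a1 measured 368 and 249 CPM against 574 and 880.3 CPM, with a log2 fold change of -1.24 (SE 0.33, edgeR adjusted p = 0.0286). The groups of all these genes did not overlap in back skin. Leaving out either back Merkel library or back IFE library 1 ended the Atp5b call, and leaving out the second library of either back group ended the Atp5a1 call. Over all 18 alternatives their largest adjusted p-values were 0.176 and 0.22. Atp5c1 and Atp5a1, like Ndufa9, Uqcrc1 and Uqcrfs1 below, fall outside the rule for named genes and were chosen after their values were seen.

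Complex I members lay lower as a group, but few passed the test. Their median log2 fold change in back skin was -1.03, with 22 of 34 lower without overlap. Ndufb9 (chromosome 15, 58933756 to 58939488), an accessory subunit, measured 26.9 and 12.5 CPM in back Merkel and 124 and 98.1 CPM in back IFE libraries 1 and 2 (log2 fold change -2.49, SE 0.64, edgeR adjusted p = 0.0233). Ndufa9, an accessory subunit of the arm next to the membrane, measured 15.1 and 33.6 CPM against 119.9 and 82.8 CPM (log2 fold change -2.06, SE 0.55, edgeR adjusted p = 0.0267). Neither gene overlapped between the groups. Both calls were lost when back IFE library 1 was left out, that of Ndufb9 also without the second and that of Ndufa9 also without the first back Merkel library. The 27 accessory members had a median log2 fold change of -1.12 with 2 called, and the 7 core members, which bind the cofactors or the quinone, had -0.34 with 0 called (2 at an unadjusted p under 0.05). Without back IFE library 2 the medians were -1.04 for accessory and -0.69 for core members, which lie closer together. The difference between core and accessory members was not tested. Core member Ndufs1, chosen after its values were seen, carries iron-sulfur clusters and stood at 55.8 and 53.4 CPM in back Merkel and 54.4 and 68.5 CPM in back IFE libraries, which overlapped.

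Complex III had the lowest median in back skin, -1.74 over its 9 genes, all fitted below 0. Uqcr10 (chromosome 11, 4701973 to 4704342), a small accessory subunit, measured 0.456 and 0.195 CPM in back Merkel libraries 1 and 2, which are 6 and 2 raw counts, against 11.5 and 6.60 CPM in back IFE libraries. Its log2 fold change was -4.74 (SE 1.28, edgeR adjusted p = 0.0283). In the paw the order was the opposite, with 8.004 and 22.2 CPM in Merkel and 3.71 and 3.06 CPM in IFE libraries, a log2 fold change of 2.16 that missed the threshold (SE 1.11, edgeR adjusted p = 0.299). Uqcrc1, a large subunit of the matrix side, measured 30.4 and 6.84 CPM in back Merkel and 103 and 91.2 CPM in back IFE libraries (log2 fold change -2.38, SE 0.62, edgeR adjusted p = 0.0243). Uqcrfs1, the iron-sulfur protein that carries electrons towards cytochrome c1, measured 22.1 and 14.4 CPM against 52.3 and 70.1 CPM (log2 fold change -1.74, SE 0.53, edgeR adjusted p = 0.0473). None of these groups overlapped in back skin. Leaving out back Merkel library 2, or in turn back IFE library 1, ended the calls of Uqcr10 and Uqcrc1, and the call of Uqcr10 also needed back Merkel library 1. That of Uqcrfs1 needed each of 6 libraries, both paw IFE and all 4 back libraries.

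Complex IV had a median log2 fold change of -1.48 in back skin, and 11 of 15 members lay lower without overlap. Cox7b (chromosome X, 106015700 to 106022450), a small nuclear subunit, measured 5.86 and 12.2 CPM in back Merkel libraries and 73.0 and 57.1 CPM in back IFE libraries (log2 fold change -2.85, SE 0.65, edgeR adjusted p = 0.0132). Cox4i1 (chromosome 8, 120668222 to 120674207), the common isoform of subunit 4, measured 26.2 and 29.6 CPM against 106 and 82.4 CPM (log2 fold change -1.76, SE 0.47, edgeR adjusted p = 0.028). Both genes were clear of overlap. The Cox7b call needed back Merkel library 1 and that of Cox4i1 each of the 4 back libraries, with largest adjusted p-values over all alternatives of 0.1 and 0.291. Ndufa4, now placed in complex IV, stood at 9.13 and 10.6 CPM against 73.8 and 34.2 CPM and missed the threshold (edgeR adjusted p = 0.0504), although DESeq2 and limma-trend called it.

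Complex II, which has no mitochondrially encoded subunit and also works in the citric acid cycle, had no called member. Sdha measured 133 and 160.2 CPM in back Merkel libraries and 141 and 181 CPM in back IFE libraries, and 118 to 157 CPM in the paw libraries. It was the flattest of the 4 subunits, with a log2 fold change of -0.13 in back skin (SE 0.33) and 0.20 in the paw (SE 0.33). The other subunits had lower fitted values in back Merkel cells that missed the threshold. Sdhc, a membrane anchor, stood at 25.5 and 27.2 CPM in back Merkel and 75.5 and 89.5 CPM in back IFE libraries (log2 fold change -1.65, SE 0.52, edgeR adjusted p = 0.0528), and passed it with DESeq2 and limma-trend. Sdhd, the other anchor, stood at 23.4 and 48.8 CPM against 92.6 and 59.5 CPM (log2 fold change -1.08, SE 0.53). Sdhb, the iron-sulfur subunit, stood at 5.63 and 3.03 CPM against 26.2 and 12.2 CPM (log2 fold change -2.14, SE 1.14).

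**Figure D2:**
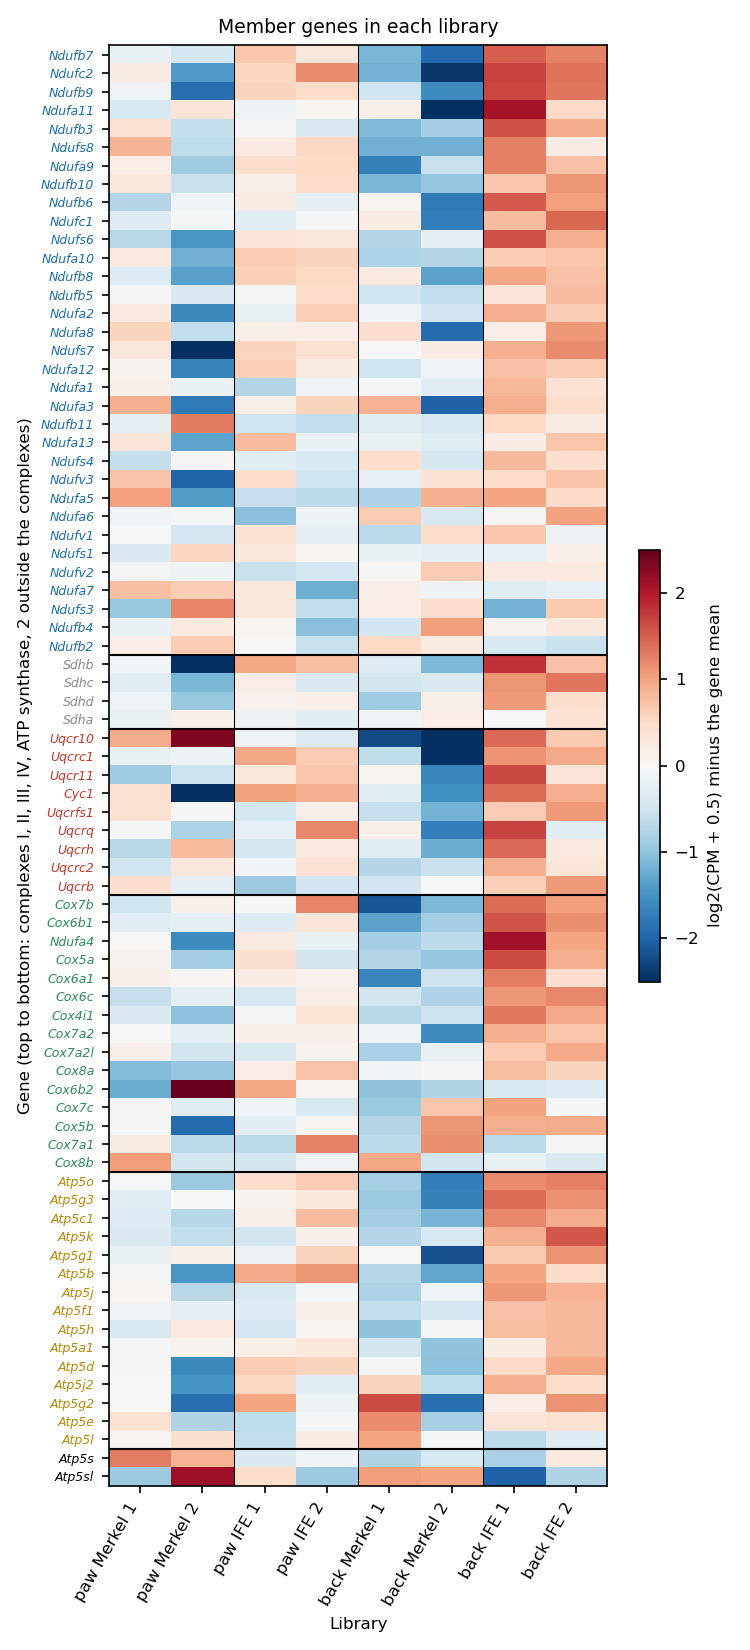
Level of 78 of the 79 members (rows, ordered by complex and then by fold change in back skin) in each of the 8 libraries (columns), as log2(CPM + 0.5) minus the gene's mean over the libraries, with red above and blue below the mean. The 2 back IFE columns are mostly red and the 2 back Merkel columns mostly blue, and paw Merkel library 2 is bluer than paw Merkel library 1, with medians over members of -0.449 and -0.030.

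The number of back calls depended on single libraries. Leaving out back IFE library 1 gave 4 (5.06%, where 4.9% of all genes were called lower), and back IFE library 2 gave 8 (10.1%, all genes 5.08%). Leaving out back Merkel library 1 gave 6 (7.59%, all genes 4.78%), and back Merkel library 2 gave 4 (5.06%, all genes 3.56%). Without back IFE library 1 the share of members called was thus near that of all genes. Leaving out paw Merkel library 1 gave 27 (34.2%) and paw Merkel library 2 gave 26 (32.9%), where 10.7% of all genes were called lower in either fit, which enter through the shared estimate of spread. The median log2 fold change stayed between -1.57 and -1.26 throughout, and was -1.28 without back IFE library 1 and -1.35 when the second was left out. In that last fit the medians were -1.26 in ATP synthase, -1.03 in complex I, -1.44 in complex II, -2.19 in complex III and -1.57 in complex IV. Transcript length moved with the result across other genes, except the shortest. Members are short, with a median transcript of 865 bases against 2932 bases over all genes tested. Among other genes, the median log2 fold change in back skin was 0.37 up to 500 bases (316 genes), -1.10 at 500 to 700 bases, -0.68 at 700 to 1000 bases, -0.36 at 1500 to 2500 bases and 0.40 above 5000 bases. The members had -0.80 up to 500 bases (7 genes), -1.36 at 500 to 700 bases (22 genes), -1.22 at 700 to 1000 bases (16 genes) and -1.27 at 1500 to 2500 bases (15 genes). Within the 79 members, length and fold change had a Spearman's rho of 0.0901. Genes of cytosolic ribosomal proteins, another set of short transcripts, had a median of -1.72, with 22 of 78 called lower (28.2%, all genes 7.45%) and 0 higher. With an offset for transcript length, chosen after the data were seen, 4 members (5.06%) were called lower (Atp5b, Atp5c1, Atp5g3 and Uqcrc1), where 7.05% of all genes were, so the share of members was below that of all genes. The median over members was then -0.55. The part of length in the result was not tested further.

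**Figure D3:**
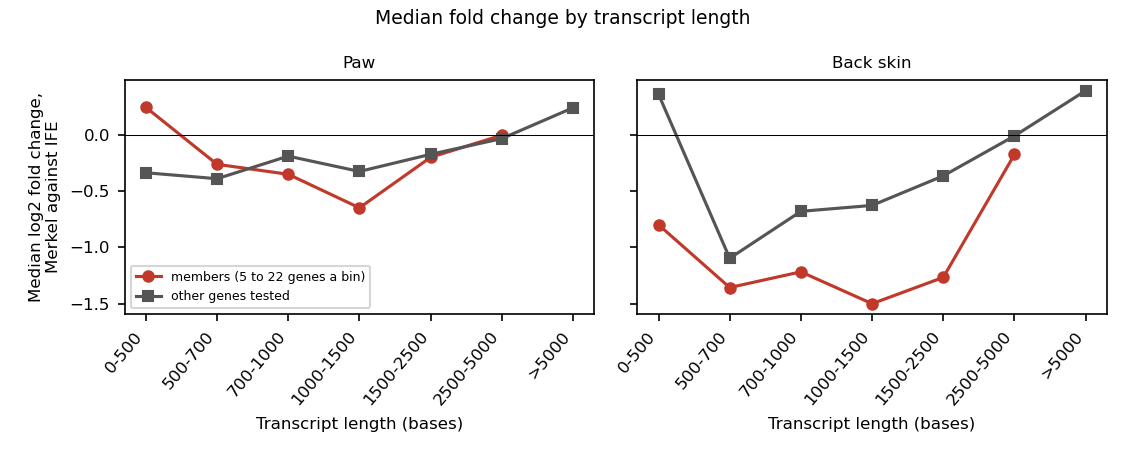
Median log2 fold change of Merkel against IFE cells (vertical axis) by transcript length in bases (horizontal axis), for members (red) and for the other genes tested (grey), in the paw and in back skin. In back skin the members lie below the other genes in each of the 6 bins that hold members, with -1.36 against -1.10 at 500 to 700 bases, and the other genes rise with length from 500 bases on.

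For 28 members, another gene holds a near-identical stretch (at least 95% identity over 150 bases or more, on either strand). Genes that overlap the member at the same place count here too. Reads of these members could have been split or lost between the genes. Their median log2 fold change in back skin was -1.28, against -1.24 for the other 51. Of the 11 called members, Atp5c1, Ndufb9, Uqcr10, Cox7b and Cox4i1 have such a stretch. Ndufb9 and Cox4i1 share 28.6% and 20.1% of their exonic bases with an overlapping gene, which may be the same stretch. The counts of Ndufb9 and Cox4i1 are uncertain where strand was not used.

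In the paw, no member passed the test between Merkel and IFE cells. With edgeR 0 of 79 members were called higher and 0 lower, where 4.28% and 1.93% of all genes were called higher and lower. At an unadjusted p under 0.05, 2 members (2.53%) lay lower (Atp5b and Atp5c1) and 0 higher, against 9.06% and 12.1% of all genes. DESeq2 and limma-trend each called Atp5b lower (1.27% of members), where 5.79% and 2.68% of all genes were called lower. These shares of members were below those of all genes. The median over members was -0.28 against -0.04 over all genes, and with the offset for transcript length it was 0.30. Without overlap, 23 members lay lower (29.1%) and 8 higher (10.1%), against 28.7% and 24.8% of all genes, so the share that lay lower was near that of all genes. Atp5b measured 1315 and 494 CPM in paw Merkel libraries 1 and 2 and 2616 and 2909.9 CPM in paw IFE libraries (log2 fold change -1.61, SE 0.45, edgeR adjusted p = 0.0587). Cyc1 stood at 115 and 12.6 CPM against 178 and 164 CPM (log2 fold change -1.43, SE 0.76, edgeR adjusted p = 0.32). Both Merkel libraries lay below both IFE libraries in each gene, but library 1 was far closer to the IFE libraries.

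The 2 paw Merkel libraries were unlike each other in many members. The median over members of the deviation from the gene's mean was -0.030 in library 1 and -0.449 in library 2 on the log2 scale. Library 1 had the higher keratinocyte marker sum given above (8191 against 1875 CPM), and the part of this in the result was not tested. Without paw Merkel library 1 the median log2 fold change over members in the paw was -0.56, against -0.28 with all libraries.

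The difference between the contrasts, paw Merkel against paw IFE minus back Merkel against back IFE, was tested as an interaction. With edgeR 0 members were called higher and 0 lower, and so were 0% and 0% of all genes. At an unadjusted p under 0.05, 6 members (7.59%) had a higher value in the paw and 0 a lower one, against 5.4% and 3.61% of all genes. DESeq2 called 2 higher (Atp5g3 and Uqcr10, 2.53% of members), where 1.31% of all genes were, and limma-trend called 0. These shares of members were near those of all genes. The median difference was 1.04 over members and 0.06 over all genes, and 68 of 79 members had a lower fold change in back skin than in the paw. Uqcr10 had the largest difference, 6.90 (SE 1.68, edgeR adjusted p = 0.275), and Atp5g3 had 2.25 (SE 0.59, edgeR adjusted p = 0.321). The smaller fold change in the paw is therefore not shown to differ from that in back skin for any member in this fit. Without a filter on low counts, edgeR called Uqcr10 (1.27% of members, where 1.12% of all genes were called higher). Without back IFE library 2 the differences were 7.24 for Uqcr10 and 2.37 for Atp5g3, with adjusted p-values of 0.185 and 0.305 by edgeR. Across the 79 members, which are not independent replicates, the fold changes of both sites correlated at 0.365 (Pearson's r), and 50 members were below 0 at both sites.

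**Figure D4:**
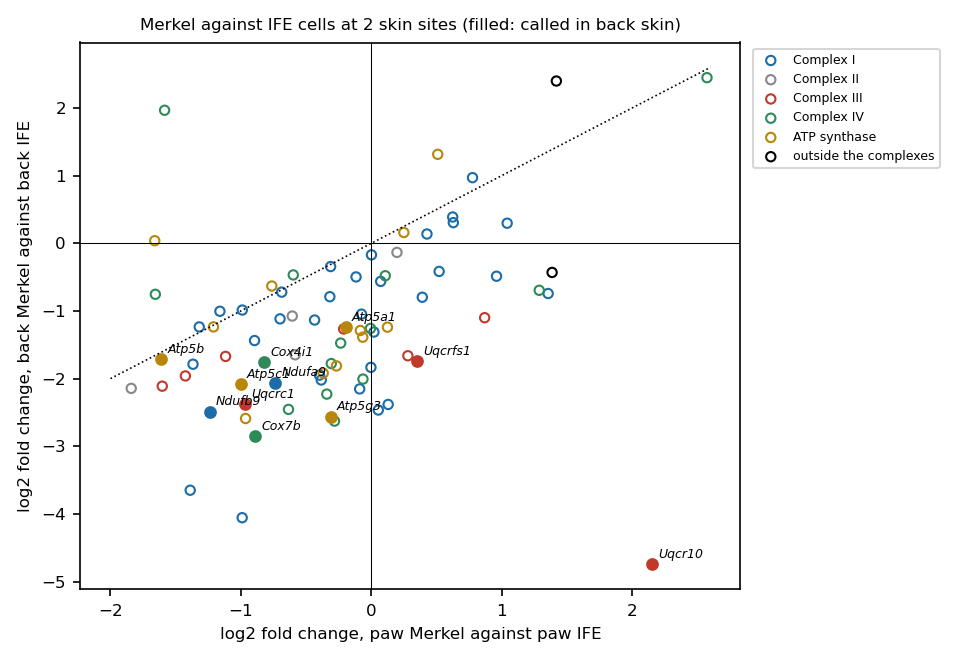
Log2 fold change of Merkel against IFE cells in the paw (horizontal axis) and in back skin (vertical axis) for each member, coloured by complex, with the 11 members called in back skin filled and named and a dotted line where both are equal. Most points (68 of 79) lie below the dotted line, and Uqcr10 lies apart at the lower right.

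Each cell type was also compared between sites. Between paw and back Merkel cells 0 members were called higher and 0 lower by edgeR, as were 0.178% and 0.0066% of all genes. At an unadjusted p under 0.05, 4 members (5.06%) lay higher in the paw, among them Uqcr10, Atp5g3 and Cox7b, and 0 lower. Of all genes, 6.77% lay higher and 3.47% lower. DESeq2 called Uqcr10 (1.27% of members, where 2.42% of all genes were called higher) and limma-trend 0. These shares of members were below those of all genes. The median over members was 0.23. Without overlap, 20 members were higher in paw Merkel cells and 2 lower, against 18.2% and 17.2% of all genes. Uqcr10, at 8.004 and 22.2 CPM against 0.456 and 0.195 CPM, had the largest fitted difference (log2 fold change 5.49, SE 1.32, edgeR adjusted p = 0.158).

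Between paw and back IFE cells 0 members were called higher and 0 lower by edgeR, and 0% and 0% of all genes, and DESeq2 and limma-trend also called 0 members. At an unadjusted p under 0.05, 5 members (6.33%) lay lower in paw IFE cells (Atp5g3, Atp5j, Sdhc, Cox6c and Ndufa4) and 0 higher. Of all genes, 2.23% lay lower and 2.01% higher. The larger share of members that lay lower was lost when any single IFE library was left out. The median over members was -0.66, against 0.01 over all genes, and 71 of 79 were fitted below 0. Without overlap, 50 members were lower in paw IFE cells and 1 higher, against 20.2% and 20.2% of all genes. Both back IFE libraries were high in members: the median deviation from the gene's mean was 0.887 in library 1 and 0.715 in library 2, against 0.110 and 0.128 in paw IFE libraries. Back IFE library 2, whose Hox genes went with the paw, thus stood with back IFE library 1 in these genes, and the median was -0.75 without it and -0.59 without library 1. The comparisons of back IFE with back Merkel and with paw IFE cells share the back IFE libraries. The summed immune markers were highest in the same 2 libraries (722 and 109.6 CPM), and their part in the result was not tested.

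Tissue isoforms of complex IV were at or near the limit of detection. Cox6a2, a muscle isoform, had 6 counts in all, 3 in each paw IFE library, and the testis isoform Cox8c had 0 in every library. Cox4i2, the isoform of subunit 4 known from lung, had 2 counts in paw IFE library 1 and 5 in back IFE library 2, and Cox7b2 had 7, all in back IFE library 2. The muscle isoforms that met the rule did so narrowly. Cox7a1 had 9, 0, 0 and 28 counts in paw Merkel 1 and 2 and paw IFE 1 and 2, and 0, 13, 0 and 8 in back Merkel 1 and 2 and back IFE 1 and 2. Cox8b had 36 counts in all, 19 of them in paw Merkel library 1 and 11 in back Merkel library 1. Neither followed the groups. Summed skeletal muscle markers were 0.685 to 26.9 CPM over 12 genes, with 4 of the 12 (Myl1, Actn2, Myog and Des) at 0 in both paw Merkel libraries and 7 in both back Merkel libraries. Summed heart and smooth muscle markers (6 genes) were higher, at 188 and 105 CPM in back Merkel libraries 1 and 2 and 10.2 to 34.2 CPM elsewhere. Of these 6, Actc1 and Acta2 were at 0 in both back Merkel libraries. With edgeR, 1 of 5 tested genes rose in back Merkel cells (Myh6) and 1 fell (Acta2), where 7.99% and 7.45% of all genes did. Ndufs5, a subunit of complex I, is listed at 0 counts in every library, and its deposited FPKM did not exceed 0.00315.

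The common isoforms were measured in every library. Cox6a1 measured 9.92 and 9.31 CPM for paw Merkel, 10.4 and 9.72 for paw IFE, 2.51 and 6.16 for back Merkel, then 22.7 and 12.1 for back IFE (back log2 fold change -2.01, SE 0.93, edgeR adjusted p = 0.171). Cox6b1 stood at 2.97 and 4.30 CPM in back Merkel and 25.7 and 19.3 CPM in back IFE libraries (log2 fold change -2.63, SE 0.91, edgeR adjusted p = 0.0739). Its testis isoform Cox6b2 stood at 0.767 to 5.34 CPM in 7 libraries and at 18.7 CPM in paw Merkel library 2. In deposited FPKM, which set levels between genes, Cox6b2 stood at 6.43 and Cox6b1 at 26.9 in that library, with the FPKM of Cox6b2 uncertain as given above. Cox7a2 stood at 14.7 and 4.89 CPM against 29.0 and 25.5 CPM, and Cox7a2l, a factor of respiratory supercomplexes, at 24.4 and 38.7 CPM against 67.7 and 83.3 CPM, with adjusted p above the threshold in both. Cox8a stood at 2.35 and 2.58 CPM in paw Merkel and 6.23 and 9.33 CPM in paw IFE libraries (log2 fold change -1.66, SE 1.07, edgeR adjusted p = 0.417), and it was called lower when FPKM values were tested. Of the genes for the c subunit, Atp5g3 was the most abundant in every library, Atp5g1 stood at 0.489 to 9.35 CPM and Atp5g2 at 0 to 5.25 CPM. Atp5e, the epsilon subunit, stood at 2.54 to 11.6 CPM, and its Merkel and IFE libraries overlapped at both sites.

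The 2 members that are not subunits went their own way. Atp5sl, needed to assemble complex I, stood at 22.4 and 21.5 CPM in back Merkel and 2.23 and 6.07 CPM in back IFE libraries (log2 fold change 2.40, SE 1.07, edgeR adjusted p = 0.156), and DESeq2 called it higher. In the paw it stood at 5.37 and 48.0 CPM in Merkel and 14.5 and 5.38 CPM in IFE libraries, which overlapped. Atp5s, the coupling factor B, stood at 13.4 and 9.86 CPM in paw Merkel cells and at 2.77 to 6.26 CPM in the other 6 libraries, with no call.

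Genes that serve the same pathway were followed in lists. Over all genes tested, edgeR called 7.99% higher and 7.45% lower in back skin, and 4.28% and 1.93% in the paw. Single calls in a list are to be read beside these shares. Of 45 tested assembly factors of the complexes, 1 rose in back Merkel cells and 0 fell, with a median log2 fold change of -0.54. The one that rose was Ttc19, an assembly factor of complex III, at 110.2 and 136 CPM against 27.0 and 44.4 CPM (log2 fold change 1.78, SE 0.44, edgeR adjusted p = 0.0193). Of 19 regulators of mitochondrial biogenesis and mitochondrial DNA, 1 rose and 0 fell: Polg2, the accessory subunit of the mitochondrial DNA polymerase, measured 43.2 and 96.6 CPM against 7.27 and 18.6 CPM (log2 fold change 2.43, SE 0.61, edgeR adjusted p = 0.0204). In the paw both lists had 0 calls by edgeR. At an unadjusted p under 0.05, 3 assembly factors lay higher and 0 lower, and 1 regulator higher and 2 lower. Of all genes, 12.1% lay higher and 9.06% lower.

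Of 24 genes of the citric acid cycle and pyruvate entry, 1 fell in the paw and 2 in back skin, and 0 rose. The 2 are 8.33% of the list, near the 7.45% of all genes called lower in back skin. Idh3b, a subunit of the NAD-dependent isocitrate dehydrogenase, fell at both sites, from 161 and 154 CPM in paw IFE to 62.3 and 52.7 CPM in paw Merkel cells (log2 fold change -1.45, SE 0.36, edgeR adjusted p = 0.035) and by 1.68 on the log2 scale in back skin. Suclg2, a succinyl-CoA ligase subunit, fell by 3.12 on the log2 scale in back skin, but not without back IFE library 2 (edgeR adjusted p = 0.0741). Of 20 genes of glycolysis and lactate, 3 fell in the paw (15%, all genes 1.93%) and 5 in back skin (25%, all genes 7.45%). The medians were -1.0 in the paw and -1.004 in back skin. Slc2a1, the glucose transporter, measured 159 and 149 CPM in paw Merkel against 419 and 497 CPM in paw IFE cells, and 83.2 and 83.5 CPM against 358 and 353 CPM in back skin (log2 fold changes -1.57 and -2.09). Slc16a1, a lactate and pyruvate transporter, fell by 3.68 in the paw and 3.52 in back skin on the log2 scale. Pkm, a pyruvate kinase, fell by 2.04 in back skin. Eno2, the neuronal enolase, was the single member of that list that rose, at 17.5 and 23.0 CPM in back Merkel against 0.434 and 0.191 CPM in back IFE libraries (log2 fold change 6.002, SE 1.53, edgeR adjusted p = 0.0223). That call was lost without back IFE library 2 (edgeR adjusted p = 0.111).

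Of 18 electron and nucleotide carriers and related proteins, 3 fell in back Merkel cells (16.7%, all genes 7.45%) and 0 rose. The median log2 fold change was -1.13. Atpif1, which inhibits the reverse action of ATP synthase, measured 25.7 and 18.95 CPM in back Merkel and 98.4 and 75.4 CPM in back IFE libraries (log2 fold change -1.96, SE 0.50, edgeR adjusted p = 0.0214). In the paw its Merkel libraries lay above the IFE libraries, at 35.8 and 61.8 CPM against 30.8 and 26.8 CPM, without a call. Vdac1, the channel of the outer mitochondrial membrane, fell by 1.18 on the log2 scale in back skin. Without back IFE library 2 only Atpif1 of the 3 passed (edgeR adjusted p = 0.0471), with 0.203 for Vdac1 and 0.278 for Slc25a4, an ADP/ATP carrier. The calls of Ttc19, Polg2, Idh3b, Slc2a1, Slc16a1, Pkm, Rps3 and Rpl13a in back skin held without that library. Of 11 genes of the oxygen response, 0 were called at either site by edgeR. At an unadjusted p under 0.05, 1 lay lower in the paw and 2 in back skin, where 9.06% and 15.3% of all genes did. In the ribosomal list Rps3 measured 100.5 and 102 CPM in back Merkel and 804 and 595 CPM in back IFE libraries (log2 fold change -2.79, SE 0.34, edgeR adjusted p = 0.000344), and Rpl13a fell by 3.21 on the log2 scale.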

How the data were processed

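RNA sequencing counts and FPKM values were used for 8 libraries, 2 in each of 4 groups. The authors deposited whole-number counts per gene and FPKM values per gene. Per the submitters' processing notes, the genome build was mm10 and the tools were Subread 1.4.6 (featureCounts), DESeq2 1.6.3, Cufflinks 2.2.1 and TopHat2 2.0.13. The annotation and strand setting are not given in the sources used here. Deposited FPKM values set levels between genes and were tested as an alternative. Counts were filtered with filterByExpr (15151 genes, all 79 members among them), scaled by TMM and fitted with edgeR 4.0.16 (limma 3.58.1, R 4.3.3) with 1 mean per group and 4 residual degrees of freedom. A call is an adjusted p under 0.05 (Benjamini-Hochberg over all genes tested) in the quasi-likelihood F test, and 5 comparisons were made. Scripts were tested on simulated data. Alternatives were RLE size factors, library totals, no filter, DESeq2 1.42.0, limma-trend (prior count 2), fits of the compared groups alone, a replicate block, FPKM with pseudocounts 1 and 0.1, each library left out, and an offset for transcript length (lowess span 0.3), the last added after the data were seen. Transcript lengths and positions are from GENCODE vM21 (24164 genes matched), using the longest of the principal transcripts.

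Members and gene lists were chosen with earlier results of these data known. Named genes are, per complex, the member with the highest mean FPKM and the called members with the largest fold change each way, the isoform pairs, the subunits of complex II, and up to 2 called genes per list, comparison and direction. Depth was 11139306 to 26195076 counts per library. Amplified reads are not independent molecules, so counting precision is overstated at low counts. Replicate numbers were checked for pairing: deviations of same-numbered libraries correlated at -0.0427 to 0.0845, so they were not taken as pairs. The values of 1 member are not reported here, though it is counted in every total.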

Additional observations from a re-analysis of the deposited data

How the results depend on the processing

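In back skin the members called numbered 18 with no low-count filter (all genes called in either direction 17.3%), 29 with DESeq2 (26.2%), 23 with limma-trend (21.1%), 23 and 22 with FPKM at pseudocounts 1 and 0.1 (17.6% and 17.2%), and 4 with the offset for transcript length (14.9%), against 11 (15.4%). With single libraries left out they numbered 4 to 27, with 7.96% to 20.6% of all genes called. In the paw they numbered 2 with no filter, and 1 each with DESeq2, limma-trend, FPKM at either pseudocount and the length offset, against 0, and 0 to 6 with single libraries left out. Between paw and back Merkel cells, no filter and DESeq2 gave 1 each, and leaving out libraries gave 0 to 1. For the difference between sites, no filter gave 1 and DESeq2 2, where 1.59% and 1.8% of all genes were called. Between paw and back Merkel cells these settings called 2.36% and 3.38% of all genes. In the paw, 10% of all genes were called with no filter, 14.7% with DESeq2 and 7.23% with limma-trend. FPKM called 3.78% and 4.01%, and the length offset 7.17%, against 6.21%. Of members, 2.53% were called there with no filter and 1.27% in the other alternatives named. The 6 came without paw Merkel library 1, where a similar share of all genes was called lower. The median log2 fold change of members under the length offset was 0.296 in the paw, where its sign reversed, -0.545 in back skin, -0.449 between IFE groups and 0.699 for the difference between sites. With single libraries left out it ranged from -0.565 to -0.102 in the paw, -1.568 to -1.262 in back skin, 0.004 to 0.511 between Merkel groups, -0.817 to -0.594 between IFE groups and 0.749 to 1.347 for the difference. Scaling by library totals moved the median of all genes to -0.103 in the paw and -0.153 in back skin, with -0.352 and -1.361 over members. The causes of these shifts were not tested. With a replicate block, 12 members were called in back skin and 1 in the paw (Atp5b), where 16.6% and 7.55% of all genes were called. Where a left-out library leaves 1 in a group, it is assumed to vary like the others. Of 2574 values of named genes under an alternative, 2481 kept direction and side of the threshold, 52 newly passed and 41 no longer passed it.

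Members with a mean under 20 CPM had 1 call among 46 in back skin, and those above had 10 among 33. Over all genes tested, at any level, 7.45% were called lower. Shares of all genes within each range were not counted, so the split is not read as particular to members.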
